A study of Homo sapiens with 6 samples.

Results

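The genes described here are EHMT2, the target of the siRNA in this series, and 9 genes of the same chromatin pathway, namely EHMT1, WIZ, ZNF644, SUV39H1, SUV39H2, SETDB1, ATF7IP, CBX3 and CBX5. They were chosen by symbol, as the partners of EHMT2, the other histone H3K9 methyltransferases with a cofactor, and HP1 readers. All 10 were found among the 19942 gene symbols of the series. RNA sequencing was done on the HCT116 line, long established from a human colorectal carcinoma, either with acquired resistance to 5-fluorouracil (resistant) or parental (wild-type). Cells of both kinds were given EHMT2 siRNA, given control siRNA, or carried neither in their label (untransfected here), which makes 6 groups of 1 library each. No group has a second library among the files used here, so no pair of libraries has a replicate check. The sources used here do not give the dose and duration of 5-fluorouracil or of siRNA, the siRNA sequence, or whether the resistant cells were 1 clone or a pool.

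EHMT2 (also called G9a) and EHMT1 (GLP) form a heteromer that places mono- and dimethyl marks on lysine 9 of histone H3, mostly in euchromatin. The zinc finger proteins WIZ and ZNF644 bind this heteromer and bring it to chromatin. SUV39H1 and SUV39H2 make trimethyl H3K9 at pericentromeric heterochromatin, and SETDB1, stabilised by ATF7IP, makes it at retroelements and at sites bound by KRAB zinc finger proteins. The HP1 proteins, encoded by CBX5, CBX1 and CBX3, read the methylated lysine through their chromodomains.

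The deposited values are FPKM, fragments scaled to gene length and library size, which may be compared between genes. The sum of a library lay between 360695 and 446143, and 11240 to 11722 genes reached 1 FPKM in a library. Read numbers are not given, so the depth is unknown and no interval for counting error can be had. Messages encoded by mitochondrial DNA took 9.74% to 26.2% of the summed FPKM and cytosolic ribosomal protein genes 8.21% to 17.0%. Of 12 colorectal epithelial markers, EPCAM, CDH1, KRT8, KRT18, KRT19 and CDX2 were at 1 FPKM or more in every library, while CDX1, VIL1, CEACAM5, LGALS4 and CDH17 were listed at 0 in every library and KRT20 stayed below 1. Leukocyte markers summed to between 0 and 1.52 FPKM, endothelial markers to between 0 and 0.332, and the fibroblast list held only COL1A1 (3.35 to 9.79 FPKM), with its other 5 genes listed at 0. In such bulk samples, fewer cells of a kind and less RNA per cell cannot be told apart.

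Promoter windows of 4 of the genes are shown first. EHMT2, SUV39H1 and SUV39H2 are the methyltransferase genes that were low together with EHMT2 siRNA, and CBX5, whose groups overlapped, shares its start region with HNRNPA1, a gene that was low. All 10 genes matched a window of RefSeq on GRCh38.p14, 22 windows in all, each running from 250 bases before to 50 bases after a transcription start and written 5′ to 3′ on the strand of the gene. The windows printed are chr6:31897649-31897948 (minus strand) for EHMT2, chrX:48695304-48695603 and chrX:48696484-48696783 (plus strand) for both annotated starts of SUV39H1, chr10:14878616-14878915 (plus strand) for SUV39H2 and chr12:54280073-54280372 (minus strand) for the upstream start of CBX5. Capitals mark matches, on either strand, to words known from promoters of cell cycle genes. These are the E2F words TTTCCCGC, TTTCGCGC, TTTGCCGC and TTTGGCGC, the CCAAT box, and the CHR words TTTGAA and TTCGAA. No matches overlap each other in the windows printed.
EHMT2: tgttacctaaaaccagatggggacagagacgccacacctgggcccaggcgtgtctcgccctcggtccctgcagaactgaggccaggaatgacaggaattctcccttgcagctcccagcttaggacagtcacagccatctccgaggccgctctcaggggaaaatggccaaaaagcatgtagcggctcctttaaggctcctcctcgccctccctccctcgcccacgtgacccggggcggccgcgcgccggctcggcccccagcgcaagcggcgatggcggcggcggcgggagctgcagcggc
SUV39H1 first start: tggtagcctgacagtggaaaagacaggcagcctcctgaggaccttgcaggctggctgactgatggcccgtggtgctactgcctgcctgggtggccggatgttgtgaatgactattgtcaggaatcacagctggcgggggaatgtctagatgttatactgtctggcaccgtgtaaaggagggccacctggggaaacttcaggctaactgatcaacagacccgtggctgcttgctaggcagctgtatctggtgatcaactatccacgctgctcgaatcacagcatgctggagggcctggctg
SUV39H1 second start: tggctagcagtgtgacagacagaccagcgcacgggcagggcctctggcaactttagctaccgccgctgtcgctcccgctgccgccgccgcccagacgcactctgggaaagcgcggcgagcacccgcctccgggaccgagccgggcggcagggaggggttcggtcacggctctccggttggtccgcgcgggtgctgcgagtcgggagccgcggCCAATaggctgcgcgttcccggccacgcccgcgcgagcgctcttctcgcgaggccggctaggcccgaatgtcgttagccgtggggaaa
SUV39H2: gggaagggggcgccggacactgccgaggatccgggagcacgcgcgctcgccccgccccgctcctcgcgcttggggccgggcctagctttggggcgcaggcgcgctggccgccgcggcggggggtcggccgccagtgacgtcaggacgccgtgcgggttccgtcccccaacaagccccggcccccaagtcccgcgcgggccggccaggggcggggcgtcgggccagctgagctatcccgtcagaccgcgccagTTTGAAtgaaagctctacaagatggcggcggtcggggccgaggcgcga
CBX5: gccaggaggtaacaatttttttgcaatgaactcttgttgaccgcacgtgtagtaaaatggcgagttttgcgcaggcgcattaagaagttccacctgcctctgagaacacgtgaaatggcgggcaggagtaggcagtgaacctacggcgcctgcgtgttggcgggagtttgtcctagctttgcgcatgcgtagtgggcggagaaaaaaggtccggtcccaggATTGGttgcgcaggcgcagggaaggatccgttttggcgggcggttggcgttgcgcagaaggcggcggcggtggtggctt

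The EHMT2 window and the first SUV39H1 window held none of these words. The second SUV39H1 window held a CCAAT box that begins 38 bases before the start, and the SUV39H2 window a TTTGAA that begins 2 bases after it. The CBX5 window held ATTGG, the CCAAT box read on the other strand. Of 35116 such windows over all genes, 3.31% held an E2F word, 34.6% a CCAAT box and 16.4% a CHR word, so the last 2 are common. CpG dinucleotides numbered 25 in the EHMT2 window, 7 and 42 in the SUV39H1 windows, 44 in the SUV39H2 window and 25 in the CBX5 window, against a median of 14 over all windows. A match is a description of letters, not of binding.

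EHMT2 (ENSG00000204371, chromosome 6, 31879759 to 31897687, minus strand) was low wherever its siRNA was given. Its FPKM was 3.80 with EHMT2 siRNA, 19.5 with control siRNA and 27.3 untransfected in resistant cells, and 8.58, 31.7 and 19.8 in the same order in parental cells. Both EHMT2 siRNA libraries lay below all of the other 4. The log2 ratio of FPKM with 1 added, EHMT2 siRNA over control siRNA, was −2.09 in resistant and −1.77 in parental cells. In resistant cells 21 other genes had a ratio as low or lower, in parental cells 31, and 12 did in both lines. EHMT2 shares 8.12% of its exonic bases with the antisense gene EHMT2-AS1, and reads there cannot be told apart without strand information.

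The additive limma fit over all 6 libraries has cell line and treatment as terms and takes the interaction of both as its error, with 2 residual degrees of freedom, so its p-values measure only the spread among these libraries. In it EHMT2 was lower by a log2 estimate of −1.93 with EHMT2 siRNA (SE 0.36, limma, Benjamini-Hochberg adjusted p = 0.0636 over 11521 genes). In this fit 0 of the 10 genes and 0% of all genes passed an adjusted p of 0.05. An unadjusted p under 0.05 was found for 3 of the 10 genes (EHMT2, WIZ and SUV39H1) and for 3060 of the 11521 genes. Of all genes, 3.8%, 22% and 25.4% had a p as low as these 3, so 3 in 10 is near the background. The same model on only the 4 siRNA libraries, with 1 residual degree of freedom, gave 4 calls, all lower. EHMT2 fell by 1.93 (SE 0.14, adjusted p = 0.000774), SUV39H1 by 0.96 (SE 0.15, adjusted p = 0.00421), WIZ by 0.53 (SE 0.14, adjusted p = 0.0254) and SUV39H2 by 0.48 (SE 0.14, adjusted p = 0.0321, all limma with Benjamini-Hochberg adjustment). That fit called 42.5% of all genes, 18.7% lower and 23.8% higher, so a count of 4 in 10 is near the background in number. Leaving out either untransfected library leaves the other alone in its treatment. For EHMT2 siRNA this repeats the 4-library fit (EHMT2 again −1.93), so it is no separate check. With 1 of the siRNA libraries left out, the EHMT2 estimate lay between −2.37 and −1.49.

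**Figure D1:**
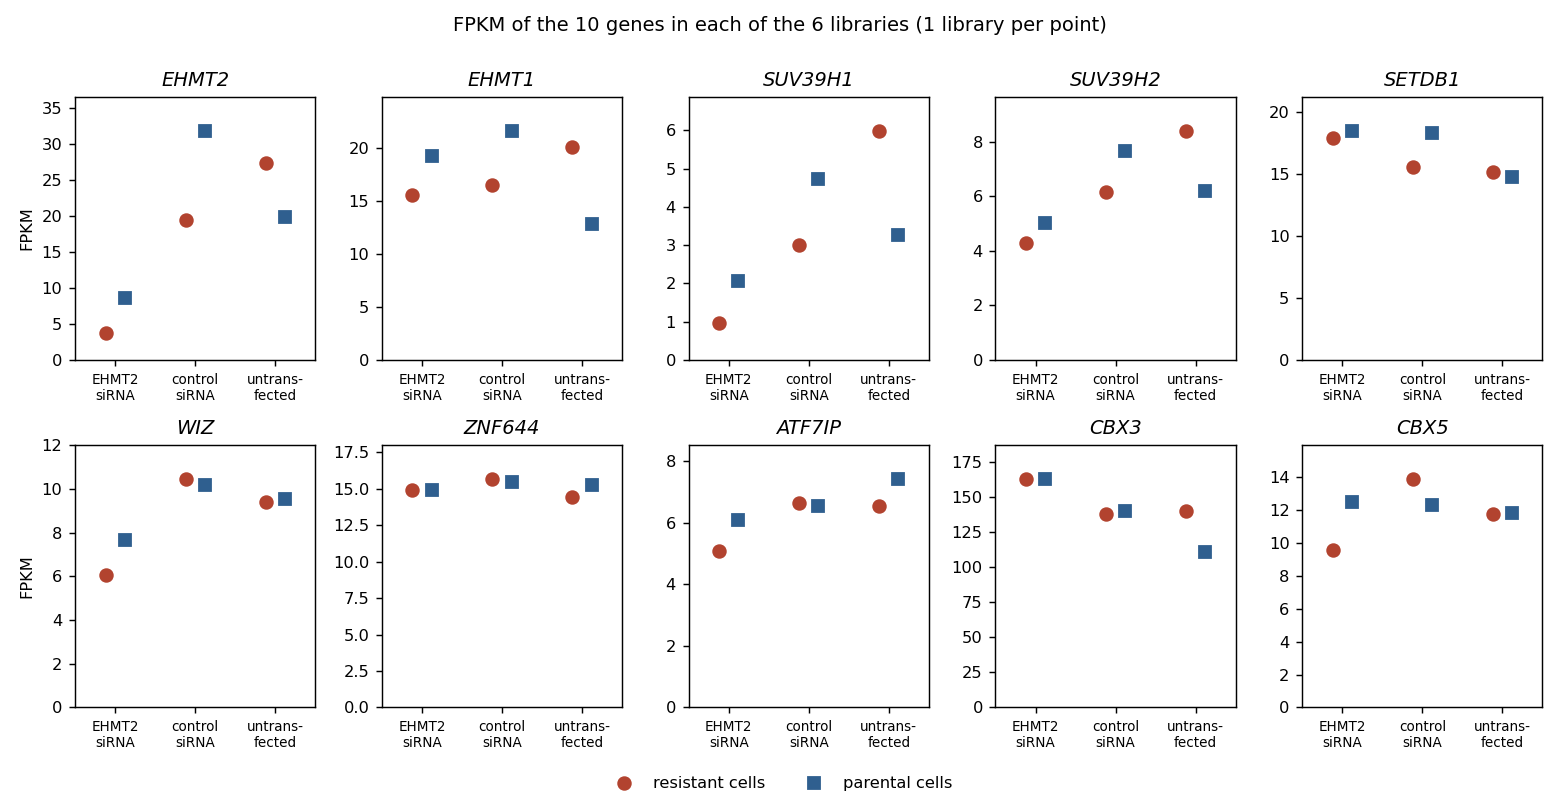
FPKM (vertical axis, from 0, own scale in each panel) of the 10 genes, with 1 point per library, resistant cells as red circles and parental cells as blue squares. In EHMT2, SUV39H1, SUV39H2, WIZ and ATF7IP both EHMT2 siRNA points lie below the other 4 points, in CBX3 they lie above them (162.8 and 162.9 against 110.9 to 140.3), and in the other genes they overlap.

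EHMT1 (chromosome 9, 137618963 to 137870016), which encodes the partner methyltransferase, did not stand apart with the siRNA. It had 15.5 FPKM with EHMT2 siRNA, 16.5 with control siRNA and 20.04 untransfected in resistant cells, and 19.3, 21.5 and 12.8 in parental cells. The EHMT2 siRNA libraries lay inside the range of the others. Its estimate of −0.12 has a 95% interval of −0.83 to 0.60 in the 6-library fit, which leaves room for a change in either direction. The ratio of the 2 partners changed sides of 1. EHMT2 had 0.245 times the FPKM of EHMT1 with EHMT2 siRNA, 1.18 times with control siRNA and 1.36 times untransfected in resistant cells. In parental cells it had 0.445, 1.47 and 1.54 times.

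WIZ (chromosome 19, 15419980 to 15449951), the zinc finger partner needed for stable EHMT2-EHMT1 complexes, had 6.07 FPKM with EHMT2 siRNA, 10.5 with control siRNA and 9.40 untransfected in resistant cells. Parental cells had 7.65, 10.2 and 9.54 FPKM. The 4 libraries without EHMT2 siRNA lay close together, between 9.40 and 10.5 FPKM, and both EHMT2 siRNA libraries below them, with ratios over control siRNA of −0.70 in the resistant line and −0.37 in the parental one. Of all genes, 9.86% had a ratio as low or lower in resistant and 21.5% in parental cells. ZNF644 (chromosome 1, 90915298 to 91022272), the other zinc finger partner, varied least of the 10 genes, between 14.4 and 15.7 FPKM over all 6 libraries, with EHMT2 siRNA at 14.9 in both lines.

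SUV39H1 (chromosome X, 48695554 to 48709012), the first histone lysine methyltransferase to be described, followed EHMT2 most closely among the other 9 genes. Its FPKM was 0.975 with EHMT2 siRNA, 3.002 with control siRNA and 5.97 untransfected in resistant cells, and 2.05, 4.72 and 3.26 in parental cells. Both EHMT2 siRNA libraries were below the other 4, and its highest level was 6.12 times its lowest. Over control siRNA the ratio was −1.02 in the resistant line, where 3.83% of all genes were as low or lower, and −0.91 in the parental one, where 4.84% were. These are low FPKM values, where adding 1 shrinks a ratio: without it the level was 32.5% of the control in resistant and 43.5% in parental cells. SUV39H1 shares 20.3% of its exonic bases with the gene AC231533.1, which makes its exact level uncertain.

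SUV39H2 (chromosome 10, 14878820 to 14904315), the paralogue of SUV39H1, went the same way by less. It had 4.31 FPKM with EHMT2 siRNA, 6.17 with control siRNA and 8.39 untransfected in resistant cells, and 5.02, 7.65 and 6.19 in parental cells. Both EHMT2 siRNA libraries lay below the others, with ratios over control siRNA of −0.43 and −0.52 in resistant and parental cells. SUV39H2 was higher than SUV39H1 in every library, 4.42 times with EHMT2 siRNA and 2.05 times with control siRNA in resistant cells, and 2.44 and 1.62 times in parental cells.

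SETDB1 (chromosome 1, 150926263 to 150964744), which trimethylates H3K9 together with TRIM28, had overlapping groups. It had 17.9 FPKM with EHMT2 siRNA, 15.6 with control siRNA and 15.1 untransfected in resistant cells, and 18.4, 18.3 and 14.7 in parental cells. Its estimate of 0.10 has a 95% interval of −0.34 to 0.54 in the 6-library fit. ATF7IP (chromosome 12, 14365632 to 14502935), which protects SETDB1 from degradation, had 5.08 FPKM with EHMT2 siRNA, 6.66 with control siRNA and 6.54 untransfected in resistant cells, and 6.09, 6.56 and 7.43 in parental cells. Its EHMT2 siRNA libraries lay below the other 4, with ratios of −0.33 in resistant and −0.09 in parental cells. SETDB1 shares 13.4% of its exonic bases with CERS2.

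Summed over EHMT2, EHMT1, SUV39H1, SUV39H2 and SETDB1, the methyltransferase genes had 42.5 FPKM with EHMT2 siRNA, 60.6 with control siRNA and 76.8 untransfected in resistant cells. In parental cells the sums were 53.3, 83.9 and 56.8. EHMT2 made up 8.95% of that sum with EHMT2 siRNA, 32.1% with control siRNA and 35.5% untransfected in resistant cells, and 16.1%, 37.8% and 34.9% in parental cells. SETDB1 was the most abundant of the 5 in the resistant EHMT2 siRNA library at 42.1% of the sum, and EHMT1 in the parental one at 36.1%. SETDB1 had 4.70 times the FPKM of EHMT2 with EHMT2 siRNA and 0.799 times with control siRNA in resistant cells, and 2.15 and 0.577 times in parental cells.

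**Figure D2:**
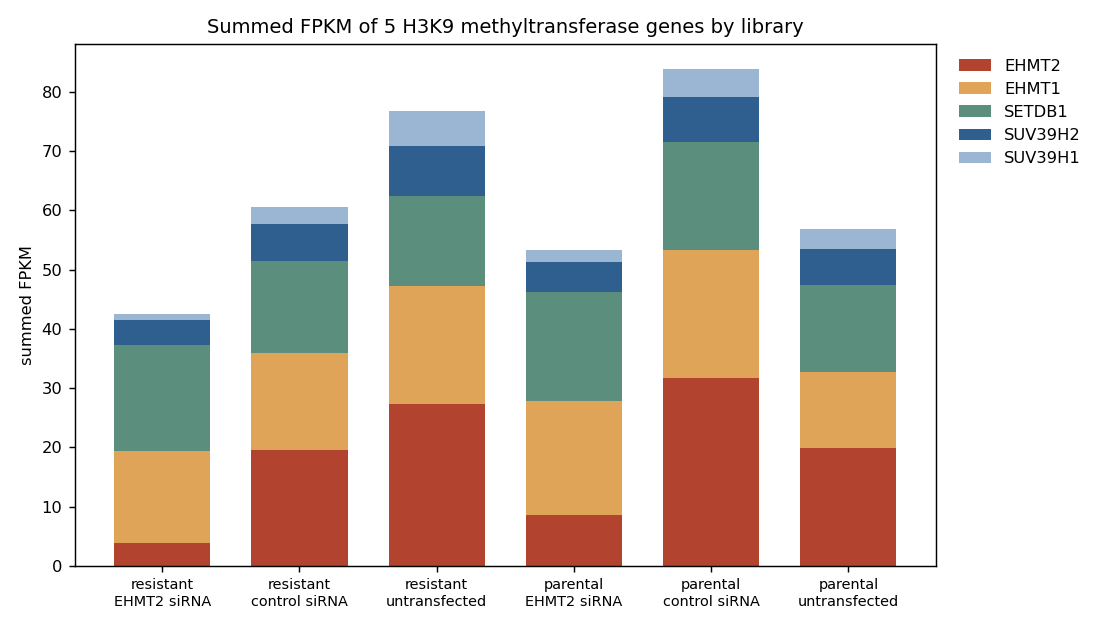
Summed FPKM (vertical axis) of the 5 H3K9 methyltransferase genes in each of the 6 libraries, stacked by gene. The EHMT2 segment is 3.80 FPKM of 42.5 in resistant and 8.58 of 53.3 in parental cells with EHMT2 siRNA, and 19.5 to 31.7 FPKM in the other libraries, while the EHMT1 and SETDB1 segments range from 12.8 to 21.5 and from 14.7 to 18.4.

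CBX3 (chromosome 7, 26201162 to 26213356), which encodes HP1 gamma, was by far the most abundant of the 10 genes and the one that lay higher with EHMT2 siRNA. It had 162.9 FPKM with EHMT2 siRNA, 138 with control siRNA and 140.3 untransfected in resistant cells, and 162.8, 139.7 and 110.9 in parental cells. Both EHMT2 siRNA libraries were above the other 4, with ratios over control siRNA of 0.24 and 0.22 in resistant and parental cells. These ratios lie between the quartiles of all genes, which were −0.32 and 0.42 in resistant and −0.30 and 0.49 in parental cells. GENCODE 29 lists 9 pseudogenes named after CBX3, and 7.93% of its exonic bases lie in HNRNPA2B1, so its level is uncertain.

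CBX5 (chromosome 12, 54230940 to 54280133), which encodes HP1 alpha, had 9.59 FPKM with EHMT2 siRNA, 13.9 with control siRNA and 11.7 untransfected in resistant cells. Parental cells had 12.5, 12.3 and 11.8 FPKM, so the resistant EHMT2 siRNA library alone was low and the groups overlap. CBX1, the HP1 beta gene, had 128.8 FPKM with EHMT2 siRNA and 85.6 with control siRNA in resistant cells, and 132.8 and 122.7 in parental cells. CBX3, CBX5 and CBX1 together had 301 and 238 FPKM in resistant and 308 and 275 FPKM in parental cells, with EHMT2 siRNA and control siRNA in that order. CBX5 was 3.18% and 5.85% of that sum in resistant cells, and 4.05% and 4.47% in parental cells.

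Across the 6 libraries, the order of mean levels was CBX3, EHMT2, EHMT1, SETDB1, ZNF644, CBX5, WIZ, ATF7IP, SUV39H2 and SUV39H1. CBX3 exceeded its nearest neighbour in every library by 4.41 times or more. EHMT1 and SETDB1, SETDB1 and ZNF644, and ATF7IP and SUV39H2 each changed places in 2 of 6 libraries, so these neighbours do not differ beyond their spread. EHMT2 and EHMT1 also changed places in 2 of 6, and those were the EHMT2 siRNA libraries. In the other 4 libraries EHMT2 was the higher, by 1.18 to 1.54 times. ZNF644, CBX5, WIZ and ATF7IP kept their order in all 6 libraries, as did SUV39H2 and SUV39H1.

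Taking the 10 genes as a group, 2 were at least 2-fold lower with EHMT2 siRNA than with control siRNA in resistant cells, EHMT2 and SUV39H1, and 1 in parental cells, EHMT2. SUV39H1 lies at the edge of that size. In resistant cells it no longer counts with equal sums or a minimum of 5 FPKM, and in parental cells it counts with a pseudocount of 0.1. The background was 4.04% of genes 2-fold lower in resistant and 3.51% in parental cells. None of the 10 was 2-fold higher, where 5.22% of genes were in resistant and 7.48% in parental cells. Among the 10 genes, 5 lay below the other 4 libraries in both EHMT2 siRNA libraries and 1 above. Of all genes, 17.2% lay below and 25.4% above. EHMT2 is the siRNA target, so its place among the 5, and in each low count and median given here, was set by the design. The ratio was below 0 in both lines in 7 of the 10 and above 0 in 2, against 35.5% and 46.1% of all genes. The median ratio of the 10 genes was −0.38 in resistant and −0.12 in parental cells, against 0.06 and 0.09 over all genes at 1 FPKM or more in either library. In resistant cells 8 of 10 ratios were below 0 and in parental cells 7, against 45.7% and 43.8% of all genes. After scaling all libraries to 1 common sum, however, ATF7IP and ZNF644 turned positive in parental cells, leaving 5. That rescaling moves the median of all genes by 0.11 in this parental pair, by 0.21 for resistant over parental untransfected cells, by 0.16 for control siRNA over untransfected parental cells, and by less than 0.1 in the other 4 pairs.

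**Figure D3:**
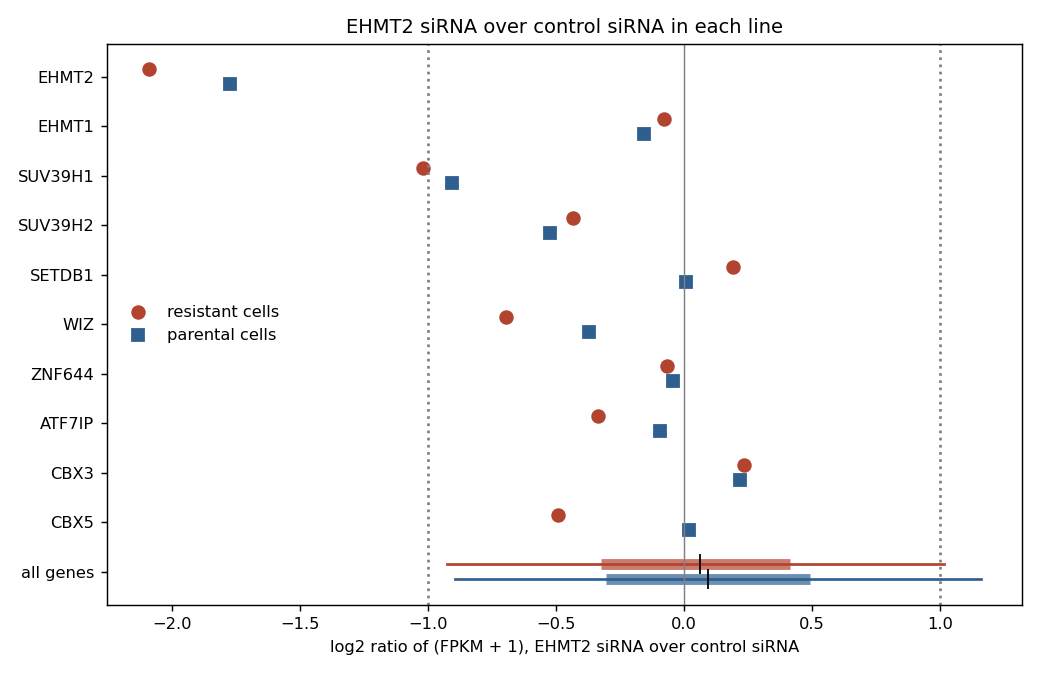
Log2 ratio of FPKM + 1, EHMT2 siRNA over control siRNA (horizontal axis), for each of the 10 genes in resistant (red circles) and parental cells (blue squares), with dotted lines at 2-fold. In the bottom row thick bars span the quartiles, thin lines the 5 to 95 percentiles and ticks the medians (0.06 and 0.09) of all genes. EHMT2 (−2.09 and −1.77) lies far outside these spans, SUV39H1 (−1.02 and −0.91) just below them, and the other 8 genes inside.

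Comparing the lines, each of the 10 genes changed sign between the untransfected and the control siRNA pair, most widely EHMT2, EHMT1, SUV39H1 and SUV39H2. SETDB1 went from 0.04 to −0.22. The share of all genes that changed sign was not computed, so this has no background. Without siRNA EHMT2, EHMT1, SUV39H1 and SUV39H2 were higher in resistant than in parental cells, with ratios of 0.44, 0.61, 0.71 and 0.38. With control siRNA the same genes were lower in resistant cells, at −0.68, −0.37, −0.51 and −0.27, and with EHMT2 siRNA they were at −0.995, −0.29, −0.63 and −0.18. As deposited, SETDB1, WIZ, ZNF644 and ATF7IP lay between −0.29 and 0.04 in all of these pairs, but this depends on scaling. With libraries scaled to the same sum, all 10 genes were above 0 without siRNA. Their median was then 0.42, against 0.19 as deposited, and that of all genes 0.28. With control siRNA, 5 of the 10 were then below 0 and 5 above. Some other gene lists described below turned the same way. Of 20 cell division genes, 20 were higher in resistant cells without siRNA and 20 lower with control siRNA. Of 18 methyltransferases of other histone sites, 16 were higher and then 15 lower, and of 10 polycomb repressive complex 2 genes, 8 and 8. Of all genes, 56.3% were higher without siRNA and 51.9% lower with control siRNA. For the line term of the fit over all 6 libraries (limma, Benjamini-Hochberg adjustment), 0 of the 10 genes and 0% of all genes passed, with adjusted p-values of 0.949 to 0.996 for the 10 genes. At an unadjusted p under 0.05 there were 603 of 11521 genes, none of them among the 10. On only the 4 siRNA libraries, EHMT2 was the 1 gene of the 10 called, lower in resistant cells by a log2 estimate of −0.84 (SE 0.14, limma, Benjamini-Hochberg adjusted p = 0.0225), where 8.96% of all genes were called. None of the 10 was 2-fold apart in any line pair, where 7.4% of genes were without siRNA, 2.56% under control siRNA and 3.09% under EHMT2 siRNA. EHMT2 with EHMT2 siRNA came just short of that size, at 3.80 FPKM in resistant and 8.58 in parental cells (1.99-fold with 1 added).

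The same 4 genes separated the lines when control siRNA was set against untransfected cells. EHMT2, EHMT1, SUV39H1 and SUV39H2 had ratios of −0.47, −0.27, −0.80 and −0.39 in resistant cells, and of 0.65, 0.71, 0.43 and 0.27 in parental cells. These directions held under rescaling to the same sum. This comparison shares its control siRNA libraries with the knockdown ratios above. None of the 10 genes was 2-fold apart, where 8.18% of genes were in resistant and 3.03% in parental cells. For control siRNA, 0 of the 10 genes passed in the fit over all 6 libraries (limma, Benjamini-Hochberg adjustment), with adjusted p-values of 0.868 to 0.971, and 0.0434% of all genes did. None of the 10 had an unadjusted p under 0.05 for it, where 813 of 11521 genes did. With the parental untransfected library left out, so that the resistant one stood alone, the SUV39H1 estimate was −0.83. With the resistant untransfected library left out, it was 0.45. Genes of cell division lay the same way, as 19 of 20 listed genes were lower with control siRNA in resistant cells and 20 of 20 higher in parental cells, with median ratios of −0.48 and 0.73. Of all genes, 54.2% were lower in resistant and 53.9% higher in parental cells. The part of the cell division genes in the differences of the H3K9 genes was not tested.

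**Figure D4:**
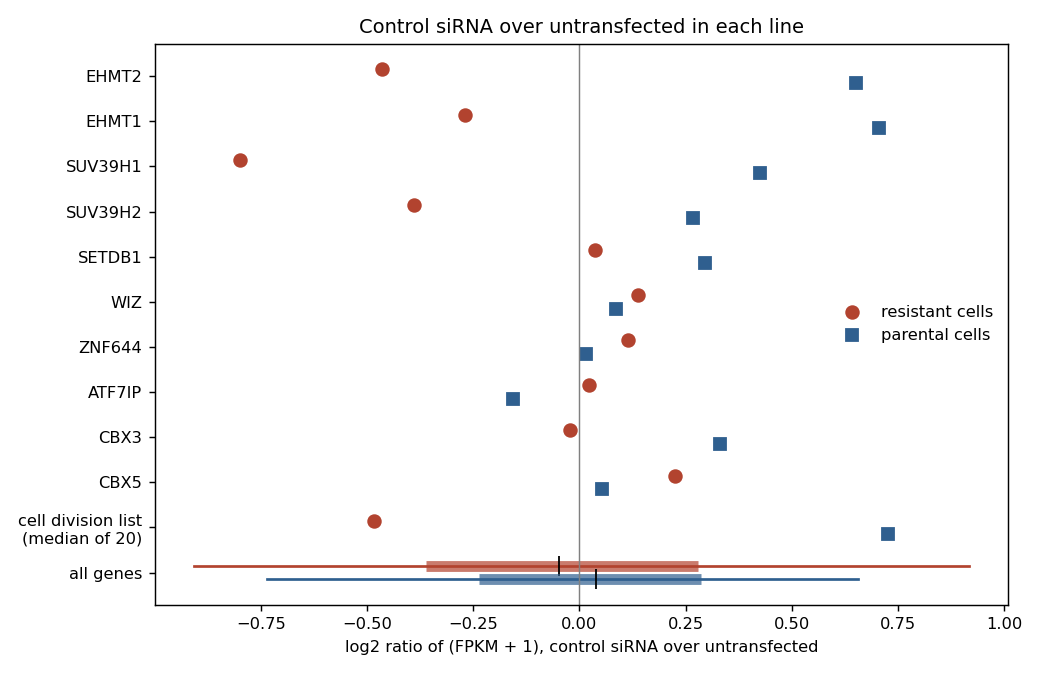
Log2 ratio of FPKM + 1, control siRNA over untransfected (horizontal axis), for the 10 genes, the median of 20 cell division genes and all genes (quartiles as thick bars, 5 to 95 percentiles as thin lines, medians as ticks). EHMT2, EHMT1, SUV39H1 and SUV39H2 lie left of 0 in resistant cells (red circles, −0.80 to −0.27) and right of 0 in parental cells (blue squares, 0.27 to 0.71), as does the cell division median (−0.48 and 0.73).

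The summed FPKM of those 20 cell division genes was 348 with EHMT2 siRNA, 769 with control siRNA and 1288 untransfected in resistant cells, and 547, 1083 and 643 in parental cells. The libraries with the lowest and the highest sum were those with the lowest and the highest SUV39H1. The highest sum, however, leans on TYMS (294 FPKM) and PCNA (203 FPKM). These had 92.4 and 136.8 FPKM in parental cells with control siRNA, the next highest sum. Other genes of the list, such as MCM7 (82.2 and 105.6 FPKM), were lower in the library of the highest sum. With EHMT2 siRNA against control siRNA the median ratio of the list was −1.24 in the resistant line and −0.96 in the parental one, and 8 of 20 genes were at least 2-fold lower in both lines, against 2.2% of all genes. These were MCM2, MCM3, MCM4, MCM5 and MCM7, subunits of the replicative helicase, RRM2, a ribonucleotide reductase subunit, TYMS, thymidylate synthase, and AURKB, a mitotic kinase. In the limma fit of the 4 siRNA libraries 18 of the 20 fell and 0 rose, with Benjamini-Hochberg adjustment over all genes, where 18.7% of all genes fell and 23.8% rose, and in the 6-library fit 0 passed. The highest by mean ratio were CDC6, a replication licensing factor, at −0.21 and −0.29, and CCNE2, a cyclin, at 0.05 and −0.43. The part of these genes in the levels of EHMT2, SUV39H1 and SUV39H2 was not tested.

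Genes whose course over the 6 libraries was most like that of EHMT2 were found by the root mean square difference of log2 values centred on each gene's mean, among 9379 genes at 5 FPKM or more in some library. The nearest were TK1, cytosolic thymidine kinase (0.10), MYBL2, a transcription factor of the cell cycle (0.18), MCM5 (0.20), NRGN, a calmodulin-binding protein (0.21) and EI24, a membrane protein of the endoplasmic reticulum (0.22). TK1 had 11.6 FPKM with EHMT2 siRNA, 58.1 with control siRNA and 67.2 untransfected in resistant cells, and 21.4, 85.5 and 55.3 in parental cells. Of the other 9 genes SUV39H1 came nearest, at rank 75 (0.43), then SUV39H2 at rank 842 and WIZ at rank 1078, while EHMT1 came at rank 2973. Nearest to SUV39H1 were TEX261 (0.06), TEDC1, a partner of delta- and epsilon-tubulin (0.07), KIFC1, a minus-end kinesin (0.08), SKA3, a kinetochore protein (0.09) and TMEM201, a protein of the inner nuclear membrane (0.10). All of these likenesses rest on the same 6 libraries.

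Of 8 listed genes around EHMT2 on chromosome 6, 6 reached 1 FPKM, of which 1 (NEU1) was lower and 4 were higher with its siRNA in both lines. Of all genes, 35.5% were lower and 46.1% higher in both lines. NELFE, a subunit of the negative elongation factor, had 54.2 FPKM with EHMT2 siRNA and 41.8 with control siRNA in resistant cells, and 44.8 and 39.0 in parental cells. SKIV2L, an RNA helicase of the cytoplasmic exosome, had 16.4 and 10.3 FPKM in resistant and 21.1 and 14.1 in parental cells. CFB, complement factor B, had 6.53 FPKM with EHMT2 siRNA and 0.507 with control siRNA in resistant cells, and 1.45 with EHMT2 siRNA while listed at 0 with control siRNA in parental cells. C2, whose annotated start lies 98 bases from that of EHMT2 on the opposite strand, had 0.567 and 0.648 FPKM with EHMT2 siRNA in resistant and parental cells and was listed at 0 with control siRNA in both. NEU1 had ratios of −0.24 and −0.08 in resistant and parental cells, ZBTB12 of 0.15 and −0.41 and STK19 of 0.53 and 0.80. SLC44A4 was listed at 0 in every library. Outside the list but near by, the noncoding host gene SNHG32 had 53.8 and 121 FPKM in resistant and 40.9 and 72.6 FPKM in parental cells. In the limma fit of the 4 siRNA libraries CFB, STK19 and SKIV2L rose and none of the 6 genes tested fell (Benjamini-Hochberg adjustment over all genes), where 23.8% of all genes rose and 18.7% fell. In the 6-library fit none of the 6 passed.

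Both HP1 genes among the 10 stand back to back with an hnRNP gene. CBX5 and HNRNPA1 parted with EHMT2 siRNA, while CBX3 and HNRNPA2B1 differed less. HNRNPA1, whose start lies 60 bases from that of CBX5 on the other strand and within the CBX5 window printed above, had 238 FPKM with EHMT2 siRNA and 732 with control siRNA in resistant cells, and 207 and 620 FPKM in parental cells. Its ratios were −1.61 and −1.57, where those of CBX5 were −0.49 and 0.02. In the 4-library limma fit HNRNPA1 fell by 1.59 (SE 0.13, adjusted p = 0.000791, Benjamini-Hochberg), and in the 6-library fit its adjusted p was 0.0674. HNRNPA1 has many pseudogenes, so its level is uncertain. HNRNPA2B1, whose exons overlap those of CBX3, had 652 and 475 FPKM in resistant and 617 and 652 FPKM in parental cells, with ratios of 0.46 and −0.08, where CBX3 had 0.24 and 0.22.

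Further genes of H3K9 methylation were read from a list of 19, of which 18 reached 1 FPKM in some library. Their median ratio with EHMT2 siRNA was 0.02 in resistant and 0.00 in parental cells, with 7 lower in both lines and 7 higher in both, against 35.5% and 46.1% of all genes. CHAF1A, a subunit of the chromatin assembly factor that binds HP1, had 7.23 FPKM with EHMT2 siRNA and 12.5 with control siRNA in resistant cells, and 10.9 and 23.8 in parental cells. MORC2, an ATPase that works with the HUSH silencing complex, had 4.81 and 8.08 FPKM in resistant and 5.14 and 11.9 in parental cells. UHRF1, which binds methylated H3K9 and guides DNA methylation, had 9.91 and 17.4 FPKM in resistant and 14.9 and 29.2 in parental cells. TRIM28, the scaffold through which KRAB zinc finger proteins call SETDB1, had 88.5 and 118.8 FPKM in resistant and 117.7 and 167.8 in parental cells. On the other side were ATF7IP2, the paralogue of ATF7IP, with 3.09 and 1.69 FPKM in resistant and 5.14 and 2.30 in parental cells, and ATRX, a heterochromatin remodeller, with ratios of 0.50 and 0.25. The limma fit of the 4 siRNA libraries (Benjamini-Hochberg over all genes) called 6 of 17 tested genes lower (CHAF1A, CHAF1B, MORC2, UHRF1, TRIM28 and MECOM) and 1 higher (ATF7IP2), against 18.7% and 23.8% of all genes, and the 6-library fit called 0.

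H3K9 demethylases, which remove the mark, had a median ratio of 0.30 in the resistant line and 0.24 in the parental one over 11 genes, against 0.06 and 0.09 over all genes. By the mean of both lines the highest were JMJD1C, with ratios of 0.51 and 0.53, and KDM7A, with 0.45 and 0.57, and the lowest were KDM3B, with −0.57 and −0.49, and PHF2, with 0.07 and −0.31. In the 4-library limma fit (Benjamini-Hochberg adjustment) KDM3A, JMJD1C and KDM7A rose and KDM3B fell of 10 tested, near the 42.5% of all genes called. Polycomb repressive complex 2 genes, which serve H3K27 methylation, had medians of −0.10 and −0.02 over 10 genes. In the 4-library limma fit 2 of 10 rose and 1 fell, against the same 23.8% and 18.7% of all genes. MTF2 and PHF1, accessory subunits, rose with estimates of 0.71 and 0.55, PHF19, another, fell with −0.57, and EZH2, the catalytic subunit, had ratios of −0.17 and −0.56.

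Methyltransferases of other histone sites were higher as a list, with a median of 0.38 in the resistant line and 0.60 in the parental one, and 14 of 18 genes above 0 in both lines, where 46.1% of all genes were. KMT2A and KMT2B, which methylate H3K4, had ratios of 0.74 and 1.10 and of 0.73 and 0.98. NSD2, which dimethylates H3K36, went the other way with 14.9 FPKM with EHMT2 siRNA and 27.1 with control siRNA in resistant cells, and 14.8 and 33.9 in parental cells. KMT5A, which monomethylates H4K20 and came next lowest by the mean of both lines, had ratios of −0.14 and 0.09. In the 4-library limma fit 9 of 18 rose and NSD2 fell (Benjamini-Hochberg adjustment over all genes), where 23.8% of all genes rose and 18.7% fell, and in the 6-library fit 0 passed. These lists were chosen with earlier results of these data known, so their medians describe these libraries only.

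**Figure D5:**
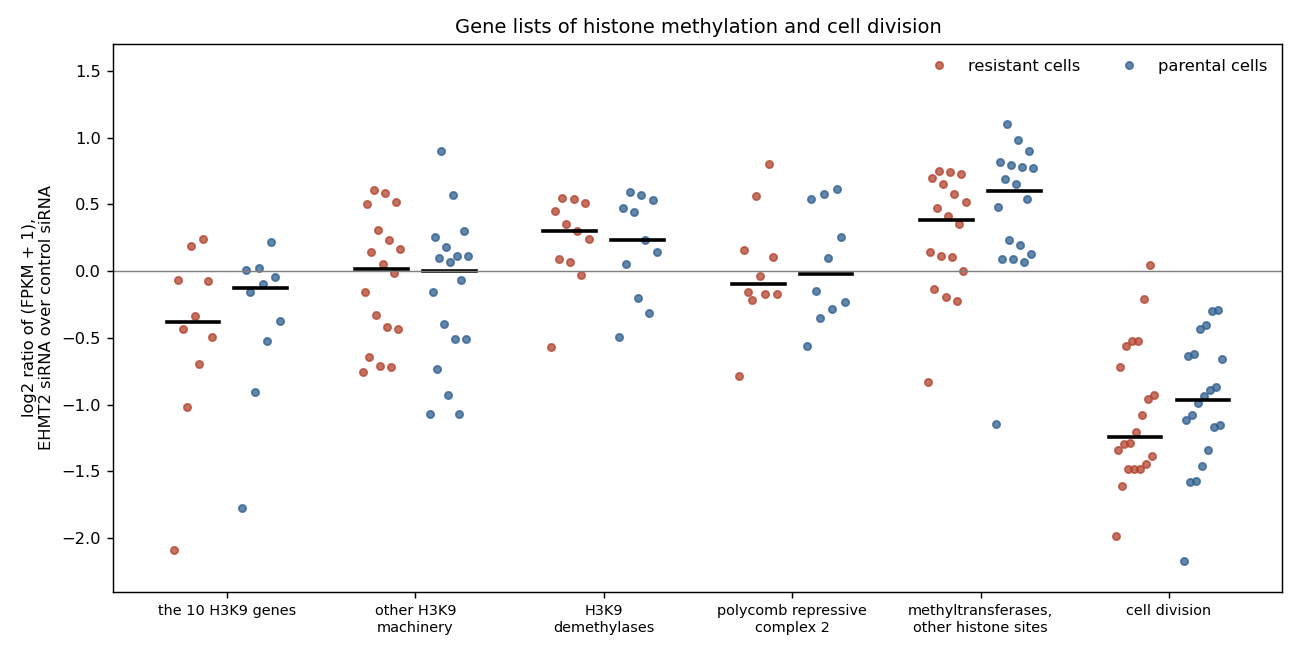
Log2 ratio of FPKM + 1, EHMT2 siRNA over control siRNA (vertical axis), for the genes of 6 lists at 1 FPKM or more in some library, with 1 point per gene, resistant cells in red at the left of each list and parental cells in blue at the right, and black bars at the medians. The cell division list lies lowest (medians −1.24 and −0.96), the 10 H3K9 genes at −0.38 and −0.12, and the methyltransferases of other histone sites highest (0.38 and 0.60).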

How the data were processed

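Total RNA of HCT116 cells was made into libraries with the TruSeq RNA kit v2, per the labels' protocols. StringTie 2.1.1, HISAT2 2.2.1, cutadapt 4.9 and FastQC 0.12.1 stand in the submitters' processing notes with the build GRCh38, their order unstated. The sources used here do not give the annotation release, filters or strand setting. The authors deposited FPKM, 1 table of 19957 rows per library, and the number of reads is unknown. Tables were joined by gene, and the row of highest mean was kept for symbols with several rows.

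Ratios are log2 of FPKM with 1 added, with the group named first on top, for genes at 1 FPKM or more in either library. The additive model of line and treatment was fitted in limma 3.58.1 (R 4.3.3, trend, Benjamini-Hochberg adjustment at 0.05) to the log2 values of the 11521 genes that reached 1 FPKM in 3 libraries, with 2 residual degrees of freedom, and with 1 for the 4 siRNA libraries. Coordinates and shared exons are from GENCODE 29 and promoter windows from RefSeq, GRCh38.p14. Alternatives were other pseudocounts, filters and scalings, no trend, fewer libraries and each library left out.

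The 10 genes, the lists and the tests were chosen with earlier results of these data known. Named were all 10 genes, list members 2-fold apart the same way in both lines, the 2 highest and 2 lowest of each list, and the 5 genes most like EHMT2 and SUV39H1. CBX1, UHRF1, TRIM28, KDM3A, CHAF1B, MECOM, NELFE, SKIV2L, C2, SLC44A4 and SNHG32 were named beyond that rule, after their values were seen.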

Additional observations from a re-analysis of the deposited data

Results flagged for a closer look

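With control siRNA against untransfected cells, 6 of the 10 genes had ratios of opposite sign in the lines. The share of all genes with opposite signs was not computed, so this count has no background. Of all genes, 54.2% were below 0 in resistant cells and 53.9% above 0 in parental cells. Resistant minus parental, the log2 difference was −1.12 for EHMT2, −0.97 for EHMT1, −1.23 for SUV39H1, −0.66 for SUV39H2, −0.35 for CBX3 and 0.18 for ATF7IP. With EHMT2 siRNA against control siRNA, only CBX5 of the 10 had opposite signs (−0.49 in resistant and 0.02 in parental cells), a difference of −0.51. Of all genes, 35.5% were below 0 in both lines there and 46.1% above 0 in both. The difference between lines was not tested for any of the 10 genes, since each line has 1 library per treatment. For ATF7IP, CBX3 and CBX5 the ratio of one line was near 0 (0.02, −0.02 and 0.02).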

How the results depend on the processing

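No paired analysis was possible because the groups share a single replicate number, and libraries are matched only by line, which is a term of every fit. For EHMT2 siRNA, the limma fit called 0 genes with 1 FPKM as the filter, 12 with no filter, 263 with 5 FPKM and 4902 on the 4 siRNA libraries, of which 4 were among the 10 genes. For line it called 1 gene with no filter and 1032 on the 4 siRNA libraries, against 0, and for control siRNA 3 with a pseudocount of 0.1 and 3 with no filter, against 5. The EHMT2 estimate was −1.93 on the 4 siRNA libraries as on all 6, now past the threshold (adjusted p = 0.000774). Leaving out each library in turn gave 0 to 4904 genes for EHMT2 siRNA (0 to 4 of the 10), 0 to 1034 for line, 3 to 2059 for control siRNA and an EHMT2 estimate of −2.37 to −1.49, where a lone library is assumed to vary like the other groups. The high counts came when an untransfected library was left out, which leaves the other alone in its treatment. For EHMT2 siRNA and for line this repeats the fit of the 4 siRNA libraries, so it is no separate check. Of the 10 genes' limma estimates for EHMT2 siRNA, EHMT1 (−0.38 to 0.15 with each library left out) turned to 0.09 without the resistant EHMT2 siRNA library and to 0.15 without the parental control siRNA library. SETDB1 (−0.011 to 0.21) turned to −0.011 without the resistant control siRNA library, and ZNF644 to 0.031 with equal sums. None of these passed the threshold, and the cause was not tested. For control siRNA, SUV39H1 (−0.19) was −0.83 without the parental untransfected library and 0.45 without the resistant one. EHMT2 (0.09) was −0.55 without the parental untransfected library and 0.73 without the resistant one. Estimates of EHMT1, SUV39H2, ATF7IP, CBX3 and CBX5 for control siRNA, and of EHMT1, SUV39H1, SUV39H2, WIZ, ZNF644, CBX3 and CBX5 for line, also changed sign under some alternative, none past the threshold. For line, EHMT2 (−0.41) was at −0.84 with either untransfected library left out, the same estimate as on the 4 siRNA libraries. Genes 2-fold apart numbered 1 instead of 2 in resistant cells at 5 FPKM or with equal sums, 2 instead of 1 in parental cells with a pseudocount of 0.1, and, for resistant over parental cells with EHMT2 siRNA, 2 with a pseudocount of 0.1 and 1 with equal sums instead of 0. The other pair counts did not move, and of 345 recomputed pair ratios of the 10 genes 336 moved by less than the residual SD. Depth is unknown, so its limit on the low genes, such as SUV39H1, cannot be given.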
